A study of Mus musculus with 14 samples.

Results

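The BCL2 family holds the proteins that decide whether a cell commits to mitochondrial apoptosis, and 10 of its genes were followed in mouse regulatory T cells (Tregs): the pro-survival genes Bcl2, Bcl2l1, Mcl1 and Bcl2a1b, the BH3-only genes Bcl2l11, Bbc3, Pmaip1 and Bid, and the effector genes Bax and Bak1. The rule takes these genes by symbol and uses no measured value. All 10 were found by their Ensembl IDs among the 53801 genes counted in Foxp3-YFP-cre mice and among the 55487 genes counted in the inducible mice. The study asked how the AP-1 factor JunB shapes Tregs of the intestine, and the comparisons here ask whether survival and death genes differed with loss of Junb and between both organs.

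A total of 14 RNA-seq libraries fell into 6 groups. Tregs of Peyer's patches (PP) were sorted as CD4+ Foxp3(YFP)+ cells from 2 JunB F/+ Foxp3YFPcre (HET) and 2 JunB F/F Foxp3YFPcre (KO) mice, all male and untreated. In these mice the Foxp3 locus drives Cre, so that floxed Junb is lost once a cell has turned on Foxp3, and unwanted deletion in the germline is known in this line from the study's methods. The inducible mice were JunB F/+ (iHET) or JunB F/F (iKO) with Foxp3ERT2cre, whose Cre acts only with tamoxifen, and with a Rosa26-tdTomato reporter that marks cells in which Cre was active. They received 3 doses of 8 mg tamoxifen in olive oil by gavage on days 0, 1 and 3 and were analysed on day 7. From them, TCRb+CD4+ Foxp3(EGFP)+ tdTomato+ Tregs of the colon lamina propria were taken from 3 iHET and 3 iKO mice, and the CD25- part of the same gate was taken from PP of 2 iHET and 2 iKO mice. Mouse 1 of each inducible group was a male labelled Foxp3ERT2cre+ and the others were females labelled Foxp3ERT2cre+/+. Mice were adult littermates, and genotypes were housed together. Every group, controls included, carried Cre and at least 1 floxed Junb allele, so no group had both Junb alleles intact in its Tregs. Organ and the CD25 gate changed together between colonic and PP Tregs of the inducible mice and cannot be told apart.

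BCL2, BCL-XL (from Bcl2l1), MCL1 and A1 (from Bcl2a1b) bind and hold back their pro-apoptotic relatives. BAX and BAK, once active, open the outer mitochondrial membrane, which releases cytochrome c and starts the caspases. The BH3-only proteins BIM (from Bcl2l11), PUMA (from Bbc3), NOXA (from Pmaip1) and BID carry stress and death signals to both sides, and in T cells cytokine signals through STAT5 are known to sustain BCL2 and MCL1. Tregs are known to need MCL1 to survive, and BIM is a known regulator of Treg numbers.

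Libraries held between 26274861 and 35508709 counts, and 3 counts correspond to 0.0897 to 0.111 CPM (a library's counts scaled to a common depth, here with TMM). TMM factors were computed apart for each mouse line, and the lines were sequenced on different instruments. CPM of Foxp3-YFP-cre and inducible libraries are therefore not on one scale, and ranges or ranks over all 14 libraries are descriptions. Junb fell in the KO, from 4739 and 5316 CPM in HET to 605 and 559.7. In CD25- PP Tregs it was 5526 and 4158 CPM in iHET and 888 and 908 in iKO, a log2 fold change of -2.44 that was not called (edgeR adjusted p = 0.0940), so in this comparison not even the deleted gene passed. In colonic Tregs Junb was 6852, 8449.5 and 7496 CPM in iHET and 1009, 990.04 and 1025 in iKO, where it fell (log2 fold change -2.91). The 7 Treg markers summed to between 4252 and 8211 CPM in every library and none was at 0, while B cell markers were also present, at 1776 to 2379 CPM in PP Tregs, 913 to 1084 in CD25- PP Tregs and 233 to 408 in colonic Tregs. Colonic iHET library 3 stood apart among members, with the lowest Bcl2, Bcl2l11 and Pmaip1 and the highest Bcl2l1, Bcl2a1b, Bax and Bak1 of all 14 libraries, and the organ differences of Bcl2 and Bcl2l11 in iHET are also given without it.

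The deleted protein binds DNA as part of AP-1, so the promoters of the members were searched for the AP-1 site TGANTCA, together with the STAT site TTCNNNGAA and the cAMP response element TGACGTCA, on both strands. RefSeq windows on GRCm38.p6 of 250 bases before to 50 bases after a start were at hand for 14 starts of 9 members, and none of Pmaip1 was searched. The AP-1 site was found in 1 window, that of Bcl2a1b, and 7.81% of all 32851 windows held it. The STAT site was in none of the 14 windows and in 8.30% of all, and the cAMP response element was in none and in 1.79% of all. A match is a run of letters and not a measured binding site. The stretches before the start of Bcl2 and Bcl2l1, the members that were differentially expressed (DE) in a comparison, and of Bcl2a1b are shown 5′ to 3′ with the AP-1 letters in capitals. They lie at chr1:106714291-106714540 (minus strand, 74.8% G or C), chr2:152831729-152831978 (minus strand, 47.6%) and chr9:89199023-89199208 (plus strand, 45.7%) of GRCm38 and stop before the start given by both RefSeq and GENCODE.
Bcl2: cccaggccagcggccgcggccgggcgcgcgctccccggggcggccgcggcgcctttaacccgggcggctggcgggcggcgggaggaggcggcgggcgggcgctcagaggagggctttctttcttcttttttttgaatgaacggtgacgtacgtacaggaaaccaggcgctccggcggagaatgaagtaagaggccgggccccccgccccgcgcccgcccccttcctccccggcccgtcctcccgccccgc
Bcl2l1: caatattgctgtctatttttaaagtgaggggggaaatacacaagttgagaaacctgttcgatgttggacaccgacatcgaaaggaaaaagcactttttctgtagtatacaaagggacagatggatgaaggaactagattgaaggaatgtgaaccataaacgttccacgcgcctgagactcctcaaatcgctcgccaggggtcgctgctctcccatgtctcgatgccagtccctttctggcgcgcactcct
Bcl2a1b: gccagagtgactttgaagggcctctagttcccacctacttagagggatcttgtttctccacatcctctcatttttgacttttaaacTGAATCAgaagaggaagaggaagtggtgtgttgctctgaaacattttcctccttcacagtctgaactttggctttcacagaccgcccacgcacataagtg

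Levels of different members were compared as CPM per kilobase of the exon that no other gene overlaps. This length still counts bases whose sequence recurs elsewhere, where reads that mapped to several places were dropped. For Bcl2a1b, 79.2% of the 50-base words occur in another gene. Its level per kilobase may therefore be too low, and its place in the order and the share of Mcl1 below are uncertain. Mcl1 was the most abundant member and Bak1 the least abundant in each of the 14 libraries. The median over libraries was 264 CPM per kb for Mcl1 (range 225 to 304), 89.6 for Pmaip1 (68.2 to 155), 73.8 for Bax (55.3 to 89.6) and 51.5 for Bcl2a1b (29.4 to 83.3). It was 24.4 CPM per kb for Bcl2 (10.7 to 37.3), 17.2 for Bcl2l1 (11.7 to 61.2), 15.1 for Bbc3 (10.1 to 27.1), 10.4 for Bid (5.84 to 17.2), 9.04 for Bcl2l11 (4.83 to 13.5) and 0.904 for Bak1 (0.485 to 2.23). Neighbours in this order often changed places: Bax lay above Pmaip1 in 3 of 14 libraries, Bcl2l1 above Bbc3 in 9, and Bcl2l11 above Bid in 5. Mcl1 made up 60.4% to 77.1% of the summed per-kilobase level of the 4 pro-survival members, and its own level varied least, with a highest library 1.35 times the lowest. Bcl2l1 varied most, at 5.21 times.

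**Figure D1:**
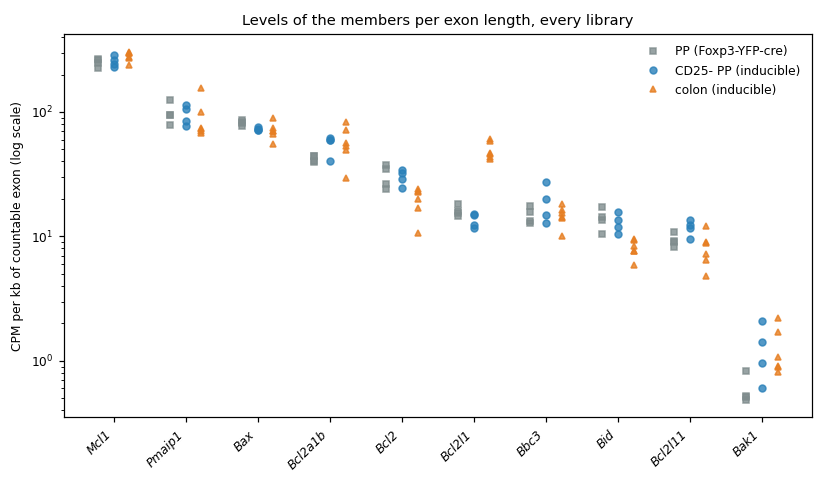
Level of each of the 10 members in CPM per kilobase (log axis) in 14 libraries, 1 point a library, coloured by organ and mouse line. Mcl1 lies above every other member and Bak1 below every other member in each library, and the points of Bcl2l1 split into a PP and a colonic cluster.

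In the KO against HET comparison of PP Tregs, 1 of the 9 members tested was DE, and 3.35% of the 12224 genes tested were. Bak1 did not reach 1 CPM in enough libraries to be tested there. In CD25- PP Tregs 0 of 10 members were DE between iKO and iHET by edgeR, as was no other gene (0% of 17079), and in colonic Tregs 0 of 10 members were DE, where Junb was the only DE gene (0.00613% of 16313). DESeq2 also called 0 members in both (0.205% and 0.307% of genes), and at an unadjusted p under 0.05 edgeR held 2 members in CD25- PP Tregs (3.62% of all genes) and 1 in colonic Tregs (3.87%). Between colonic and CD25- PP Tregs, 1 member was DE in iHET mice (6.45% of 18626 genes) and 1 in iKO mice (4.07%), in both cases Bcl2l1. At an unadjusted p under 0.05 were 3 members in iHET (22.3% of genes) and 2 in iKO (20.9%). The difference between these organ contrasts, which is the interaction of organ with genotype, was DE for 0 of 10 members and for 0% of all genes by edgeR, with 1 member and 3.34% of genes at an unadjusted p under 0.05, and DESeq2 called 0 members (0.0107% of genes). The contrasts share libraries, so their results are not independent. Each p-value sets a difference against the spread between mice, and edgeR estimates that spread with help from the other genes. In the organ comparisons and the interaction, the spread was estimated over all groups of the inducible mice.

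**Figure D2:**
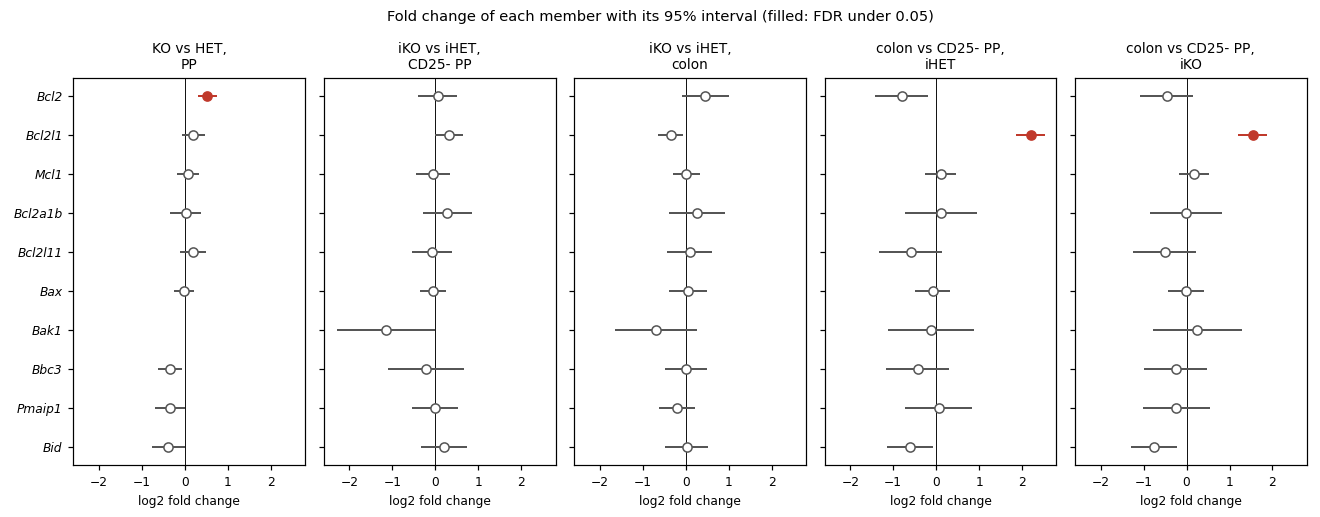
Log2 fold change of each member with its 95% confidence interval in the 3 genotype comparisons and in both organ comparisons, with filled points for members that were DE. Only Bcl2 in PP Tregs and Bcl2l1 in both organ comparisons are filled.

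Bcl2, the founding pro-survival gene of the family, rose in PP Tregs that lacked JunB. The gene lies at chr1:106538178-106714274 (minus strand, GRCm38), and 558 of its 9157 exon bases overlap D630008O14Rik on the other strand. It was 227 and 206 CPM in HET and 300.3 and 321 in KO, so that both KO libraries lay above both HET libraries, as was the case (in either direction) for 43.6% of genes tested. The means were 217 ± 14.9 CPM in HET and 311 ± 14.5 in KO (SD, n = 2 each). The fold was 1.43, a log2 fold change of 0.52 with a standard error of 0.0842 and a 95% confidence interval of 0.33 to 0.71 (edgeR quasi-likelihood test, adjusted p = 0.0173). As these are bulk samples, a change in the make-up of the sorted cells and a change of RNA per cell cannot be told apart. By flow cytometry, the study found T follicular regulatory cells nearly absent from PP of KO mice, and CD25- Tregs reduced. It attributed most of its DE genes in this comparison to the loss of follicular cells. The part of these losses in the difference of Bcl2 was not tested. With 1 library left out, the log2 fold change was 0.45 to 0.59. The call was lost without PP HET 1 (adjusted p = 0.0860), PP HET 2 (0.106) or PP KO 2 (0.0889), when 0.426%, 1.11% and 1.81% of all genes were DE, and was kept without PP KO 1 (0.0389), when 2.44% were.

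Markers of other cells moved in the same libraries. The 7 epithelial markers summed to 137 and 169 CPM in PP HET and to 63.2 and 72.5 in PP KO, and 5 of them fell, with log2 fold changes from -0.73 for Epcam to -4.27 for Krt8, a keratin of simple epithelia. The cytotoxic markers Klrb1c and Nkg7 also fell, with log2 fold changes of -1.74 and -1.64, among 6 markers that summed to 79.7 and 92.7 CPM in HET and 48.2 and 48.7 in KO, with at most 1 of them at 0 in a library. Of the 5 that were tested, 1 had a positive value, Cd8a (0.18), which was not DE. Of the 7 Treg markers, 2 were DE, Foxp3 (log2 fold change 0.51) and Il2ra (0.73), and both rose. The 2 with negative values, Ikzf2 (-0.11) and Cd3e (-0.07), were not DE. The part of all these markers in the difference of Bcl2 was not tested.

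In the inducible mice the interval of the difference in Bcl2 was wide. Bcl2 was 212 and 292 CPM in CD25- PP Tregs of iHET and 277 and 249.8 in iKO, values that overlapped, with a log2 difference of 0.06 and a 95% interval of -0.38 to 0.49. In colonic Tregs it was 198, 146 and 92.2 CPM in iHET and 207 (mouse 1), 170.4 and 196 in iKO. The groups overlapped, and the log2 fold change was 0.45 with an interval of -0.07 to 0.98 (adjusted p = 0.947 by edgeR with cage as a term). Without iHET library 3 it was 0.15, and without iKO library 3 it was also 0.15.

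Bcl2 was lower in colonic than in CD25- PP Tregs in every library of either genotype, at 92.2 to 207 CPM in the colon and 212 to 292 in PP. The log2 difference was -0.80 (standard error 0.265) in iHET and -0.46 (0.266) in iKO, and neither was DE (edgeR adjusted p = 0.107 and 0.356). Without colonic iHET library 3 the difference in iHET was -0.55. Groups did not overlap for 38.7% of all genes in iHET and for 44.0% in iKO. When the genotypes were averaged, a comparison added after the data were seen, Bcl2 was DE with a log2 difference of -0.63 (standard error 0.188, adjusted p = 0.0448), against 17.3% of all genes.

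Bcl2l1, which encodes BCL-XL, showed the largest difference of any member, and it was between organs. The gene lies at chr2:152780668-152831728 (minus strand) and shares no exon base with another gene. In iHET mice Bcl2l1 was 56.7 and 53.8 CPM in CD25- PP Tregs and 215, 269 and 280.5 in colonic Tregs. In iKO mice it was 69.5 and 68.4 CPM in CD25- PP Tregs and 191, 211 and 199 in colonic Tregs. Every colonic library thus lay above every PP library, while 38.7% of all genes in iHET and 44.0% in iKO had groups that did not overlap. The fold was 4.60 in iHET (log2 2.20, standard error 0.144, 95% interval 1.88 to 2.52) and 2.90 in iKO (log2 1.54, standard error 0.139, interval 1.23 to 1.85), with edgeR adjusted p = 2.06e-04 and 7.10e-04. Bcl2l1 stayed DE in every alternative run for each genotype, although some of these left 1 library in a group. Its log2 difference was 2.13 to 2.30 in iHET and 1.48 to 1.57 in iKO. It was 1.87 with the genotypes averaged, a fit added after the data were seen.

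Other cells and tissue handling also differed between the organs, and the colon alone was digested with Dispase. The 6 myeloid markers summed to 97.8 to 279.95 CPM in colonic and 54.7 to 97.3 in CD25- PP libraries, where 1 of them was at 0. Epithelial markers summed to 147 to 1315 CPM against 115 to 286, B cell markers to 233 to 408 against 913 to 1084, and 13 immediate early genes that respond to tissue dissociation to 18110.2 to 28143 against 13331.5 to 18902. Without the 3 colonic libraries of the highest epithelial sums, an alternative added after the data were seen, Bcl2l1 remained DE at a log2 difference of 2.18 in iHET and 1.48 in iKO (adjusted p = 0.00732 and 0.0450), when 1.46% and 0.412% of all genes were DE. The part of the epithelial, myeloid, B cell and dissociation genes in this difference was not tested.

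**Figure D3:**
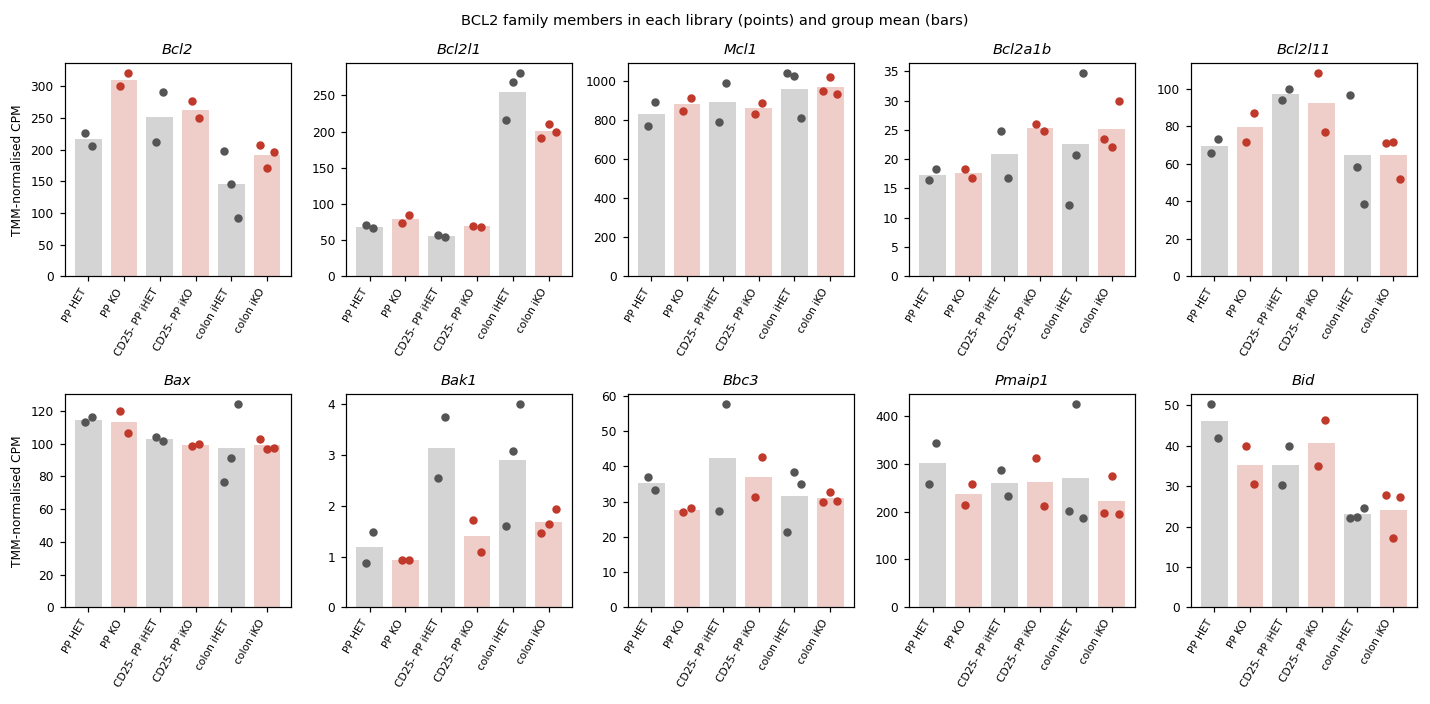
TMM-scaled CPM of each of the 10 members in every library, 1 panel a member and 1 point a library, with the group mean as a bar. In the panel of Bcl2l1 all 6 colonic libraries, at 191 to 280.5 CPM, lie above all 8 PP libraries, at 53.8 to 84.3 CPM.

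With loss of JunB, Bcl2l1 was not DE in any population. It was 70.7 and 66.6 CPM in PP HET and 73.6 and 84.3 in PP KO (log2 fold change 0.20, 95% interval -0.04 to 0.44). In CD25- PP Tregs both iKO libraries lay above both iHET libraries, with a log2 fold change of 0.31 (interval 0.0048 to 0.62), and 32.1% of genes had groups that did not overlap. In colonic Tregs all 3 iKO libraries lay below all 3 iHET libraries, with a log2 fold change of -0.34 (interval -0.61 to -0.08), and 8.35% of genes had groups that did not overlap. The edgeR adjusted p was 0.465, 0.999 and 0.947. The difference between the last pair of fold changes was -0.67 on the log2 scale with a standard error of 0.187 (adjusted p = 1.00).

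Per kilobase, Bcl2 and Bcl2l1 exchanged rank between the organs. Bcl2 lay above Bcl2l1 in all 8 PP libraries and below it in all 6 colonic libraries. The ratio of Bcl2l1 to Bcl2 was 0.346 to 0.606 in PP libraries of both lines. In colonic libraries it was 2.04, 3.46 and 5.70 in iHET and 1.72, 2.32 and 1.91 in iKO, so that the highest ratio was that of iHET library 3. These ratios are descriptions of the same values as above, and they depend on the exon length used for each gene. By CPM, Bcl2 lay above Bcl2l1 in colonic iKO library 1 as well (207 against 191), and below it in the other colonic libraries.

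**Figure D4:**
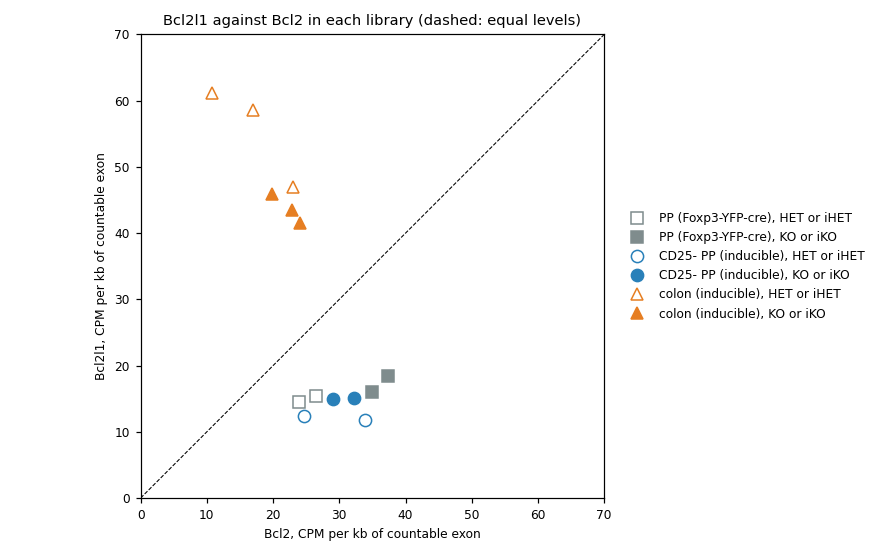
Bcl2l1 against Bcl2 in CPM per kilobase, 1 point a library, with open points for HET or iHET and filled points for KO or iKO and the line of equal levels. The 8 PP libraries lie below the line and the 6 colonic libraries above it.

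Mcl1 (chr3:95658788-95663176, plus strand), the pro-survival gene with a short-lived protein, was nearly level across groups. It was 768 and 893 CPM in PP HET, 848 and 910.3 in PP KO, 791 and 989.5 in CD25- PP iHET, and 833 and 887 in CD25- PP iKO. Colonic libraries had 1039, 1025 and 810.1 CPM in iHET and 948, 1019.6 and 931 in iKO. No genotype comparison was DE, with log2 differences of 0.08 (95% interval -0.15 to 0.31) in PP, -0.06 (-0.43 to 0.31) in CD25- PP and 0.02 (-0.27 to 0.30) in colonic Tregs. The organ differences were 0.10 in iHET and 0.17 in iKO on the log2 scale (edgeR adjusted p = 0.742 and 0.560), although both CD25- PP iKO libraries lay below all colonic iKO libraries. Groups did not overlap for 44.0% of all genes in iKO.

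Bcl2a1b (chr9:89199209-89207827, plus strand), one of the A1 genes, had a low CPM, and its level was uncertain. Per kilobase, Bcl2 lay above Bcl2a1b in 0 of 14 libraries and Bcl2l1 did in 2. Bcl2a1b ranged from 12.2 CPM in colonic iHET 1 to 34.7 in colonic iHET 3, with no DE in any comparison and log2 differences between -0.01 and 0.28. Of its 817 exon bases, 401 overlap Gm29094, and 79.2% of its 50-base words also occur in Bcl2a1a, Bcl2a1c, Bcl2a1d or Gm29094. Reads that mapped to several places or overlapped both genes were left out of the authors' counts, so its values cover only a part of the gene.

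Among the BH3-only genes, none was DE in a comparison by the quasi-likelihood test of edgeR on all libraries, and the calls that other settings gave stand beside each gene. Bbc3 (chr7:16308393-16318205, plus strand), the gene of PUMA and a p53 target, was 37.0 and 33.4 CPM in PP HET and 27.0 and 28.2 in PP KO. Both KO libraries lay below both HET libraries, at a log2 difference of -0.35 (95% interval -0.61 to -0.09, edgeR adjusted p = 0.177). Groups did not overlap, in either direction, for 43.6% of genes tested there. In the inducible mice Bbc3 overlapped between genotypes, at 27.2 and 57.6 CPM in CD25- PP iHET and 31.4 and 42.6 in iKO, and at 21.5, 38.4 and 35.0 CPM in colonic iHET and 29.8, 32.8 and 30.2 in iKO.

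Bid (chr6:120891930-120916853, minus strand), whose product is cut by caspase-8 and links death receptors to mitochondria, was 50.2 and 41.9 CPM in PP HET and 39.9 and 30.5 in PP KO (log2 difference -0.39, 95% interval -0.74 to -0.03, adjusted p = 0.306). With the replicate number as a block, Bid was called there at -0.39 (adjusted p = 0.0222), as were 8.30% of all genes. Between organs, Bid was 30.3 and 39.9 CPM in CD25- PP iHET and 22.2, 22.5 and 24.6 in colonic iHET. In iKO it was 34.9 and 46.2 CPM in CD25- PP and 27.7, 17.1 and 27.3 in colonic Tregs. All colonic libraries lay below all CD25- PP libraries, with log2 differences of -0.61 in iHET and -0.75 in iKO that were not DE (edgeR adjusted p = 0.157 and 0.0984). Of all genes, 38.7% in iHET and 44.0% in iKO had groups that did not overlap. In iKO, Bid was called by DESeq2 (adjusted p = 0.0247) and by edgeR without a filter on low counts (adjusted p = 0.0180). With genotypes averaged, in the comparison added after the data were seen, Bid was DE at -0.68 (standard error 0.164, adjusted p = 0.0198). Of its exon bases 628 overlap Bcl2l13 on the other strand, and reads there were left out of the counts.

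Pmaip1, the gene of NOXA, which binds MCL1, was the most abundant BH3-only member. It was 257 and 344 CPM in PP HET and 215 and 258 in PP KO, values that overlapped (log2 difference -0.35, edgeR adjusted p = 0.334). The difference lay between -0.54 without PP HET library 1 and -0.12 without PP HET library 2. It was called with the replicate number as a block (-0.34, adjusted p = 0.00815) and without a filter on low counts (-0.34, adjusted p = 0.00685), where 8.30% and 4.25% of all genes were. It was 286 and 233 CPM in CD25- PP iHET and 311 and 211 in iKO. Colonic iHET libraries had 201, 424 and 186 CPM, the widest spread of this gene in any group, and iKO libraries 198, 274 and 194.

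Bcl2l11 (chr2:128126038-128162547, plus strand), the gene of BIM, was 65.6 and 73.3 CPM in PP HET and 71.8 and 87.0 in PP KO, with a log2 difference of 0.19 (95% interval -0.08 to 0.47). It was 94.1 and 99.9 CPM in CD25- PP iHET and 108 and 76.7 in iKO, and 96.6, 58.1 and 38.7 in colonic iHET against 70.8, 71.8 and 51.9 in iKO. The genotypes overlapped in both. Between organs the log2 differences were -0.59 in iHET and -0.51 in iKO (edgeR adjusted p = 0.316 and 0.396). Without colonic iHET library 1 the difference in iHET was -1.01 and was DE (adjusted p = 0.0409), as were 9.17% of all genes, whereas without colonic iHET library 3 it was -0.33 (adjusted p = 0.515).

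Bax (chr7:45461697-45466898) and Bak1 (chr17:27019810-27029009, both on the minus strand), the effectors, were not DE by edgeR in any comparison in which they were tested. Bax ranged from 76.5 to 124 CPM, both extremes in colonic iHET libraries, and its log2 differences lay between -0.08 and 0.05. Bak1 had only 25 to 122 counts a library. It was 2.53 and 3.75 CPM in CD25- PP iHET and 1.73 and 1.09 in iKO, where both iKO libraries lay below both iHET libraries (log2 difference -1.14, 95% interval -2.26 to -0.03, edgeR adjusted p = 0.999). In that comparison 32.1% of all genes had groups that did not overlap. In colonic Tregs Bak1 was 1.60, 3.08 and 3.99 CPM in iHET and 1.47, 1.64 and 1.93 in iKO, which overlapped (log2 difference -0.69, interval -1.63 to 0.24). In PP it was 0.869 and 1.49 CPM in HET and 0.931 and 0.925 in KO, with a log2 difference of -0.33 when genes of low count were kept. Of its exon bases 614 overlap Ggnbp1 on the other strand.

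As a group the members did not lie to one side. In PP Tregs 5 of 9 were higher and 4 lower in the KO, with a median log2 difference of 0.02 beside 0.0030 over all genes tested. This count pools survival and death genes. The pro-survival members Bcl2 (0.52), Bcl2l1 (0.20), Mcl1 (0.08) and Bcl2a1b (0.02) had positive values, as had the BH3-only Bcl2l11 (0.19). The BH3-only Bbc3 (-0.35), Pmaip1 (-0.35) and Bid (-0.39) and the effector Bax (-0.02) had negative ones. Only Bcl2 was DE, and a split by class was not tested. At an unadjusted p under 0.05 were Bcl2, Bbc3, Bid and Pmaip1, or 4 of 9 members, against 14.0% of all genes. The median was -0.03 in CD25- PP and 0.02 in colonic Tregs between genotypes, and -0.10 in iHET and -0.13 in iKO between organs, beside medians over all genes of -0.0023, 0.0048, -0.0086 and 0.014.

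Genes that act beside the family were counted in 6 lists. Of 15 other BCL2 relatives, which include Bcl2l2, Bad, Bmf and Bok, 11 to 13 were tested in a comparison and 0 were DE in any by edgeR or by DESeq2, with at most 2 at an unadjusted p under 0.05. In PP Tregs Birc2 was the 1 of 7 inhibitors of apoptosis and their antagonists that was DE, and it rose in the KO (log2 0.46, edgeR adjusted p = 0.0289). DESeq2 and the exact test of edgeR also called Birc3, which rose by 0.37 in the main fit (adjusted p = 0.0775). Of 8 gamma chain cytokine receptor and Stat5 genes, 2 rose there and 0 fell, beside 0.990% and 2.36% of all genes: Il7r (0.56), the receptor of IL-7, and Il2ra (0.73), which encodes CD25. DESeq2 also called Il4ra of that list. The lists of 12 apoptosome and caspase genes, 9 death receptor genes and 12 p53 targets had 0 DE genes in PP by edgeR. At an unadjusted p under 0.05 were 0, 3 and 3 (14.0% of all genes), and DESeq2 called 1 gene of these lists, Perp.

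No gene of the 6 lists was DE between iKO and iHET in CD25- PP or colonic Tregs by edgeR or DESeq2, nor for the interaction, and at most 2 genes of a list had an unadjusted p under 0.05. Between organs, 5 of 8 cytokine receptor and Stat5 genes were higher in colonic Tregs of iHET (4.22% of all genes were higher), among them Il2ra (log2 1.71), Il4ra (1.32), Il2rb (0.70) and Il7r (0.67), and 2 in iKO (2.48% of all genes), Il2ra (1.63) and Il4ra (0.99). Il2ra encodes the surface protein that the PP gate selected against, so its own difference is not a finding, and both counts include it. The p53 targets Cdkn1a (2.66), a cell cycle inhibitor, and Sesn2 (1.67) were higher in colonic Tregs of iHET, 2 of 12, and 0 of 12 were in iKO by edgeR, where 4 had an unadjusted p under 0.05 and DESeq2 called 3. Tnfrsf10b (1.69), 1 of 9 death receptor genes, and Birc2 and Birc3 (0.76 each), 2 of 7 inhibitors of apoptosis and antagonists, were also higher in colonic Tregs of iHET. In iKO, Diablo (-0.73), which releases caspases from inhibition, was lower in colonic Tregs, 1 of 7 in its list, as were 1.59% of all genes. DESeq2 called Birc2 beside it. Of 9 death receptor genes, 0 were DE in iKO (1 at an unadjusted p under 0.05, and DESeq2 called Tnfrsf10b).

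Over the 10 libraries of the inducible mice, the genes whose log2 CPM ran most closely with Bcl2 were Plekha1 (Pearson r = 0.97), Il6ra (0.96), Spata48 (0.96), Gm47469 (0.96) and Slc44a2 (0.96). Those that ran most opposite were Ttc39c (-0.97), Slc25a51 (-0.96) and Hcls1 (-0.95). For Bcl2l11 they were Zc3h4, Dop1a and Fbxo47 (0.97 each), Etnk1 (0.96) and Micall1 (0.96), and Mdh1 (-0.98), S100a10 (-0.96) and Tmem19 (-0.96) ran opposite. Bcl2 and Bcl2l11 had r = 0.84 with each other and Bcl2 and Bcl2l1 had -0.79. These libraries share organ, cage and depth, so the values are descriptions.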

How the data were processed

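RNA-seq libraries of sorted Tregs (SMARTer v4 kit, no molecular identifiers) were used as deposited. The authors trimmed reads with TrimGalore and CutAdapt, used STAR to align them to GRCm38, dropped reads with several matches, and counted them per gene with featureCounts at default settings, which ignores strand and leaves out reads that overlap 2 genes. Libraries of Foxp3-YFP-cre mice were sequenced as single-end reads and those of inducible mice as paired-end reads on another Illumina instrument. The reverse reads of the inducible mice were not used by the authors. The deposited values are raw counts, whole numbers that were not normalized. Symbols, positions and exon overlaps came from GENCODE M21 by gene ID (53706 of 53801 and 55394 of 55487 IDs matched), while the study used M22.

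A gene was tested if 1 CPM or more was reached in a number of libraries no lower than the size of the smaller group, with edgeR 4.0.16 in R 4.3.3 (TMM, quasi-likelihood test, prior count 1, Benjamini-Hochberg FDR under 0.05 over all genes tested). Each genotype comparison was fitted on its own libraries, that of colonic Tregs with the replicate number as a term for cage. The study had 1 iHET and 1 iKO mouse per cage, and that a shared number marks a cage is an assumption. The organ comparisons were fitted on the 10 libraries of the inducible mice. Alternatives included DESeq2 1.42.0. Confidence intervals are at 95%, and scripts were tested on simulated data. No libraries of a group were duplicates: counts of replicates differed by more than sampling noise, with a chi-square of 17.7 to 84.7 per degree of freedom. Floors of counts cover counting error only, while the intervals of the fits include the spread between mice.

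The members and lists were chosen with earlier results of these data known. All members are named in every comparison, genes of other lists where they were DE (at most the 4 of lowest p in a list and comparison), and the 5 genes with the highest and 3 with the lowest correlation to Bcl2 and Bcl2l11. Markers are named beyond this rule after their values were seen. The full sort gate of PP Tregs and the organ comparisons of the list of apoptosome and caspase genes are not reported here.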

Additional observations from a re-analysis of the deposited data

Results flagged for a closer look

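The difference of Bcl2l1 between iKO and iHET pointed in opposite directions in both organs of the inducible mice, and was DE in neither (edgeR adjusted p = 0.999 in CD25- PP and 0.947 in colonic Tregs). Bcl2l1 was flagged because its groups lay apart in opposite directions. The interval and p-values below come from the same values and are no separate support. Groups did not overlap for 32.1% of all genes in CD25- PP and 8.35% in colonic Tregs. Both iKO libraries of CD25- PP Tregs (69.5 and 68.4 CPM) lay above both iHET libraries (56.7 and 53.8), while all 3 colonic iKO libraries (191, 211 and 199) lay below all 3 colonic iHET libraries (215, 269 and 280.5). The difference of the log2 fold changes, colonic minus CD25- PP, was -0.67 with a 95% interval of -1.08 to -0.25. It did not pass the edgeR test over all 18626 genes (unadjusted p = 0.00524, adjusted p = 1.00), and 3.34% of those genes had an unadjusted p under 0.05. Over the 17 alternatives the difference lay between -0.78 and -0.60, with adjusted p from 0.393 to 1.00. Groups of 2 or 3 libraries are too small for a test of single outlying libraries.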

How the results depend on the processing

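Each of the 6 counts of members called was recomputed under 11 to 19 alternatives, 92 in all, and 80 stayed within 1.5 times. In PP Tregs, 1 member was called, 2 without a filter on low counts (Bcl2 and Pmaip1) and 0 to 1 when each library was left out. Between organs 2 members were called by DESeq2 and 2 without a filter in either genotype (Bcl2 in iHET and Bid in iKO beside Bcl2l1), 3 with the genotypes averaged, and 1 to 3 in iHET when a library was left out, with 3 (Bcl2, Bcl2l1 and Bcl2l11) without colonic iHET 1. No member was called in CD25- PP Tregs, in colonic Tregs or for the interaction under any alternative. Where leaving out a library left 1 in a group, that library was assumed to vary like the others. Of 20 member values with p under 0.15, none reversed. Of the 39 others, 33 changed sign in at least 1 alternative and none was called. The values were split by p in the same libraries, so this contrast is largely built in and is no separate support. Counts over all genes varied more. DESeq2 called 696 against 409 genes in PP, 35 against 0 in CD25- PP, 50 against 1 in colonic Tregs, 2504 against 1201 between organs in iHET, 2233 against 758 in iKO and 2 against 0 for the interaction. Without a filter these were 1305, 232, 24, 2848, 2348 and 282. The exact test called 689 in PP and 43 in CD25- PP, the likelihood ratio test 25 in colonic Tregs, and fits of 1 genotype alone 430 in iHET and 1267 in iKO. With a library left out they were 54 to 313 in PP, 0 to 128 in CD25- PP, 0 to 8 in colonic Tregs, 137 to 1700 in iHET and 74 to 1096 in iKO.

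With the replicate number as a block, 3 members were called in PP Tregs (Bcl2, Pmaip1 and Bid, with 1015 genes in all), 0 in CD25- PP, and 1 in each organ comparison, with 430 genes in all in iKO. The block was part of the colonic fit, and without it 0 members were called. Same-numbered libraries deviated together by r = 0.159 in PP, 0.0731 in CD25- PP and 0.160, 0.294 and -0.0211 in colonic Tregs, and colonic iHET 3 correlated best with iKO 1. In the inducible groups, mouse 1 was also the male labelled Foxp3ERT2cre+ and the others were females labelled Foxp3ERT2cre+/+, and no label names a shared litter, batch or day.

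The limits are small groups of 2 or 3 mice and, for Bak1, counts of 25 to 122 a library.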

Other observations

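Colonic iHET library 3, which held the extreme value for 7 of the 10 members, also had the highest level of Birc5, an inhibitor of apoptosis that dividing cells express. Birc5 was 34.2 CPM there and 2.41 and 4.45 in the other colonic iHET libraries. It was 10.8, 7.20 and 7.62 CPM in colonic iKO, 2.09 to 3.92 in CD25- PP and 6.59 to 10.3 in PP libraries. The library was named after its values were seen, and what sets it apart was not tested.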
